A study of Mus musculus with 6 samples.

Results

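A set of 10 genes of the tight junction, the seal between neighbouring epithelial or endothelial cells, was examined in submandibular glands of Myd88−/− and Myd88+/+ NOD mice. They were chosen by gene symbol, as the claudins Cldn1, Cldn3, Cldn4, Cldn5, Cldn7, Cldn8 and Cldn10 together with Ocln, Tjp1 and F11r. These 10 genes stood among 19505 named genes on the array, and each was read by 1 probe set. The Myd88−/− animals were 3 female NOD mice aged 10 weeks that were homozygous for the Myd88 knockout allele (strain label NOD.B6-Myd88−/−), and the controls were 3 females of the same age and background with the intact gene (NOD.B6-Myd88+/+). Each mouse gave 1 Clariom S array of total RNA from the whole gland. NOD mice spontaneously develop autoimmune lymphocytic infiltrates of salivary glands, and all 6 animals share that background. The sources used here do not say how the Myd88 allele was made.

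Tight junctions encircle the apical end of epithelial cells and set which ions and solutes can pass between the cells. Claudins are the membrane proteins that form the strands; some of them tighten the seal, and others line it with pores for ions or water. Occludin and the junctional adhesion molecules share the strands or lie beside them, and the zonula occludens proteins anchor them to actin. In salivary glands, pores between acinar cells let sodium and water follow secreted chloride, whereas the junctions of ducts keep the saliva that is modified there from leaking back. Myd88 carries the signal of most Toll-like receptors and of interleukin-1 family receptors, and inflammatory cytokines are known to alter tight junctions of epithelia in culture.

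Cldn4 and F11r had the largest differences between the genotypes, so their promoters are shown with that of Cldn3, the gene next to Cldn4 on chromosome 5. Each runs 5′ to 3′ on the gene's own strand, from 250 bases before to 50 bases after the start of the RefSeq gene in GRCm38.p6. Capitals mark matches on either strand to the letters GGGCGG (GC box), CAGGTG (the E-box that Snail-type repressors recognise) and TGANTCA (AP-1).
Cldn4, chr5:134946885-134947184, minus strand: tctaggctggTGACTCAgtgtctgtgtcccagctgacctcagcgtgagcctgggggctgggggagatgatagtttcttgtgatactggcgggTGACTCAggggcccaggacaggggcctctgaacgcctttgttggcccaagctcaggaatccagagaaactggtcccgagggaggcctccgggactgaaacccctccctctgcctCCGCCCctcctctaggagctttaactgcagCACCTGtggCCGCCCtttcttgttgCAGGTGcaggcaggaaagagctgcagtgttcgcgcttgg
Cldn3, chr5:134985964-134986263, plus strand: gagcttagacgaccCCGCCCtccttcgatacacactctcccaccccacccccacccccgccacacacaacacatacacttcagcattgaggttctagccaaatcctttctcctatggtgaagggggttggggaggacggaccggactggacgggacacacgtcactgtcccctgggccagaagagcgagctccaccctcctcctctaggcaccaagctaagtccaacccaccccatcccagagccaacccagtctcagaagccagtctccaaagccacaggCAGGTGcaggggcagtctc
F11r, chr1:171437311-171437610, plus strand: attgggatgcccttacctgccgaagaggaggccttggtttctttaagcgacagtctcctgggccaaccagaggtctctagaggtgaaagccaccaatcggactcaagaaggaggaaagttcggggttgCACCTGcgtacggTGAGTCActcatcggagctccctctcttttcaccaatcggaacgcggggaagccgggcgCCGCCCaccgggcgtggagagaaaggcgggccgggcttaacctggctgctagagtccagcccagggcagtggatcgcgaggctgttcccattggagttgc
The Cldn4 window held 2 GC boxes, 2 E-boxes and 2 AP-1 letters, the F11r window 1 of each, and the Cldn3 window 1 GC box and 1 E-box. RefSeq promoters were matched for 9 of the 10 genes, 12 windows in all. Cldn7, Cldn10 and Ocln had 2 windows each, and those of Ocln overlap and share 1 E-box, so the windows are not independent. The GC box was in 10 of the 12 windows, against 35.7% of 32851 promoters of the same length. The E-box was in 6 of the 12, against 20.2%, and the AP-1 letters were in 2 of the 12, those of Cldn4 and F11r, against 7.81%. The letters CCGGAA, a core of ETS sites, were in 3 of the 12, against 14.9%. The letters TATAAA were in 0 of the 12, against 13.6%, and AACCGGTT, the site of the epithelial Grainyhead-like factors, was in 0 of the 12, against 0.146%. The printed windows had a GC content of 61.0% (Cldn4), 60.7% (Cldn3) and 60.3% (F11r), against a median of 52.7% over all promoters, and GC boxes share that base composition. These matches describe the letters and are not evidence of binding.

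Values are log2 expression, so a difference of 1 is a 2-fold change. The 23 background control probe sets had a median of 5.55, and 9 of the 10 genes read above the background median of their own array on all 6 arrays. The highest reading of any of the 10 was 15.23, below the ceiling of 19.93 at which the scale ends. The glands carried the markers of the labelled tissue: all 10 measured acinar markers and all 8 measured granular duct markers lay above background on average, with 2 acinar and 2 granular duct markers at the ceiling on every array. No pair of the 15 was identical. The Myd88 probe set read 7.33, 6.80 and 7.47 in Myd88−/− glands and 7.81, 7.86 and 7.53 in Myd88+/+ glands, a log2 difference of −0.53 (limma adjusted p = 0.462) that was −0.33 without Myd88−/− replicate 2; whether the knockout removes the bases it reads is not known here, so it does not settle the labels. None of the 10 genes lies on chromosome 9, which carries Myd88 (0 of 10). Of the genes of related lists named further on, Amotl1, Esam, Nectin1 and Cldn18 do lie on chromosome 9.

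**Figure D1:**
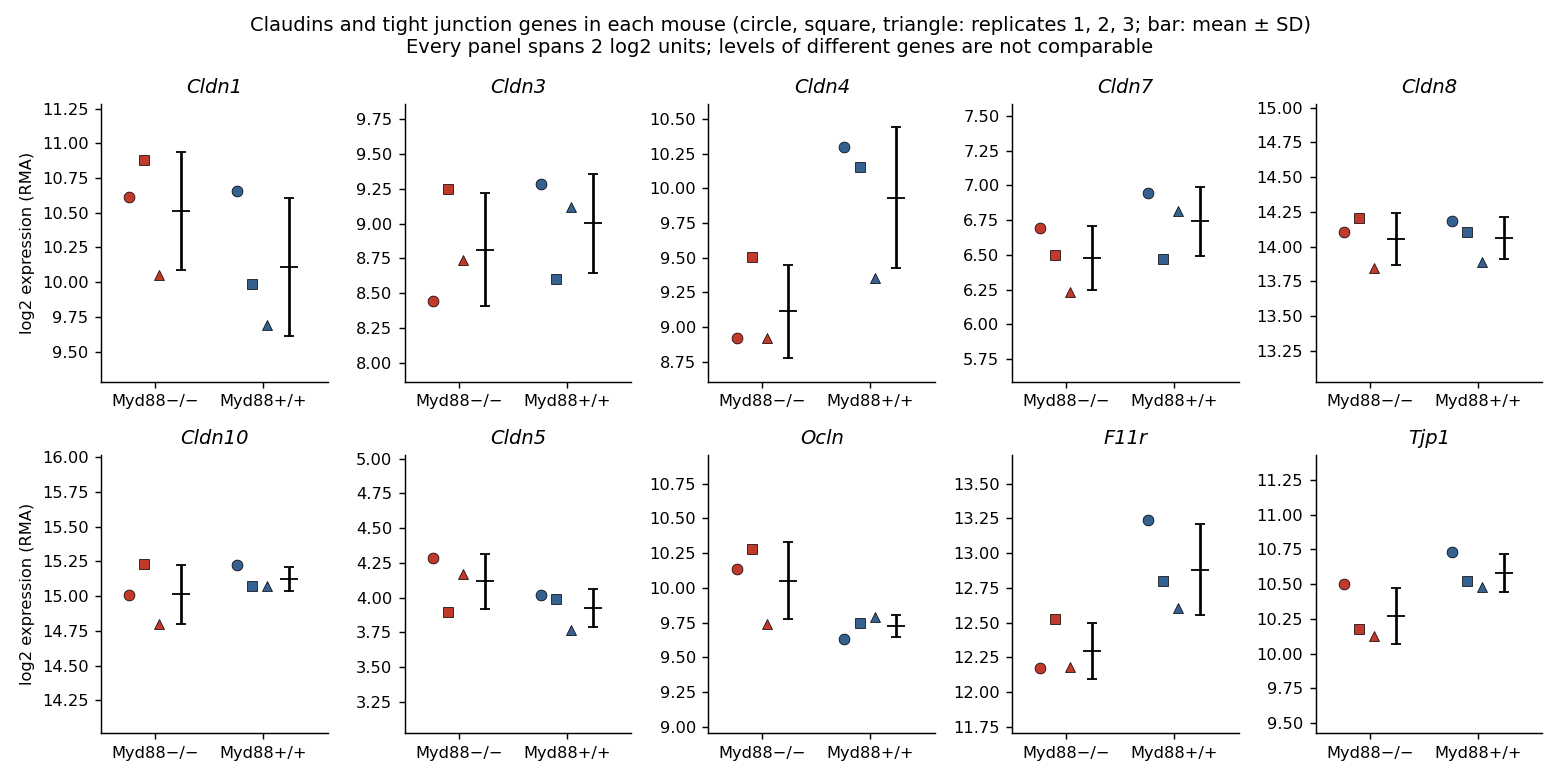
Log2 expression of each of the 10 genes (y axis, each panel spanning 2 log2 units) in Myd88−/− glands on the left and Myd88+/+ glands on the right; circles, squares and triangles are replicates 1, 2 and 3 and the bar is mean ± SD (n = 3). F11r is the gene whose groups do not overlap, Cldn4 overlaps through Myd88−/− replicate 2 and Myd88+/+ replicate 3, and Cldn8 and Cldn10 lie at nearly the same height in both groups.

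By mean level, 7 of the 10 genes had a lower mean and 3 a higher mean in Myd88−/− glands than in Myd88+/+ glands, and 0 passed limma's test adjusted over all 22206 probe sets, in which 0% were called. At an unadjusted p under 0.05, 2 of the 10 were lower, Cldn4 and F11r, against 5.55% of all probe sets, and 0 were higher, against 4.5%. The groups did not overlap in 1 of the 10, F11r, which was lower in every Myd88−/− gland, against 7.25% of all probe sets that were lower in this way. The median log2 difference of the 10 was −0.15, and −0.24 without Myd88−/− replicate 2 or −0.05 without Myd88+/+ replicate 1. Over all probe sets the median was 0.02, which pools brighter and dimmer ones. Split by level into equal parts, the brighter probe sets had a median of −0.07 and the dimmer ones 0.09. As 9 of the 10 genes lay above background on average, the brighter part is the nearer comparison. Of the 12788 probe sets above background, 57.8% were lower. These are bulk glands, in which fewer cells of a type and less RNA per cell cannot be told apart.

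**Figure D2:**
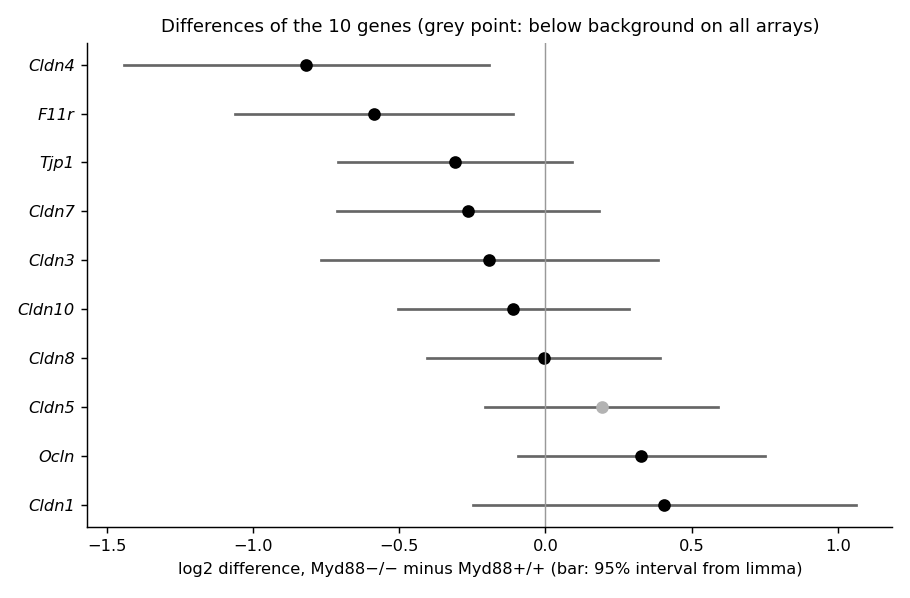
Log2 difference, Myd88−/− minus Myd88+/+ (x axis), of each gene with its 95% interval from limma. The intervals of Cldn4 and F11r lie below 0, from −1.44 to −0.19 and from −1.06 to −0.11, before adjustment for the number of probe sets, and the other 8 include 0.

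Among the claudins that tighten the seal, Cldn4 had the largest difference of the 10 genes. Cldn4 is a barrier claudin of ducts and other tight epithelia, and one of the receptors of the Clostridium perfringens enterotoxin. It read 8.92, 9.50 and 8.92 in Myd88−/− glands and 10.30, 10.15 and 9.35 in Myd88+/+ glands. Replicates 1 and 3 of the Myd88−/− group were the lowest of all 6, and the groups overlapped because Myd88+/+ replicate 3 read below Myd88−/− replicate 2. The means were 9.12 ± 0.34 and 9.93 ± 0.51 (SD, n = 3 each), a log2 difference of −0.82 (standard error, SE, 0.28), or 1.76-fold lower. The difference did not pass (limma adjusted p = 0.428), and the two-sided exact permutation p was 0.2, where 3 against 3 mice allow no less than 0.1. Leaving out each mouse in turn gave −1.11 to −0.64, the largest difference being the one without Myd88+/+ replicate 3.

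Cldn3, the neighbour of Cldn4 on chromosome 5 and its closest partner as a barrier claudin and toxin receptor, had overlapping groups. It read 8.44, 9.25 and 8.74 in Myd88−/− glands, against 9.28, 8.60 and 9.12 in Myd88+/+ glands. The order of the mice was not that of Cldn4, since Myd88+/+ replicate 2, which was high for Cldn4, was low for Cldn3. The difference was −0.19 (95% interval −0.77 to 0.38, limma adjusted p = 0.831), and it was −0.41 without Myd88−/− replicate 2 and −0.01 without Myd88−/− replicate 1.

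Cldn1, best known for the water barrier of the epidermis, leaned the other way. It read 10.62, 10.88 and 10.05 in Myd88−/− glands and 10.65, 9.99 and 9.69 in Myd88+/+ glands, so the groups overlapped through Myd88+/+ replicate 1 and Myd88−/− replicate 3. The log2 difference was 0.41 (95% interval −0.25 to 1.06, limma adjusted p = 0.67), and it ran from 0.20 without Myd88+/+ replicate 3 to 0.68 without Myd88+/+ replicate 1. Cldn7, a claudin of the lateral membrane that binds the epithelial adhesion molecule Epcam, read close to background, at 6.70, 6.50 and 6.23 in Myd88−/− glands and 6.94, 6.47 and 6.81 in Myd88+/+ glands. The groups overlapped, and the difference was −0.26 (95% interval −0.71 to 0.18, limma adjusted p = 0.687), with −0.40 without Myd88+/+ replicate 2 and −0.14 without Myd88−/− replicate 3. Between 52.0% and 66.0% of the 5222 negative control probe sets read below Cldn7 on an array.

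Cldn10, which has pore-forming isoforms and is a claudin of secretory acini, differed by less than the spread between mice. It read 15.01, 15.23 and 14.80 in Myd88−/− glands and 15.23, 15.07 and 15.07 in Myd88+/+ glands. The Myd88+/+ values all lay inside the Myd88−/− range. The difference was −0.11 (95% interval −0.51 to 0.28, limma adjusted p = 0.864), with −0.22 without Myd88−/− replicate 2 and −0.0046 without Myd88−/− replicate 3. RefSeq gives Cldn10 a pair of start sites, and 1 probe set cannot separate the transcripts that begin at each. Cldn8, a claudin of kidney collecting ducts and other sodium-absorbing epithelia, was the flattest of the 10, at 14.11, 14.21 and 13.85 in Myd88−/− glands and 14.19, 14.10 and 13.89 in Myd88+/+ glands. Its difference was −0.01 (95% interval −0.41 to 0.39, limma adjusted p = 0.996). The value turned positive after quantile normalization (0.11) and after cyclic loess (0.07).

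Cldn5, the barrier claudin of blood vessels, was below background in both groups. It read 4.28, 3.90 and 4.17 in Myd88−/− glands and 4.02, 3.99 and 3.77 in Myd88+/+ glands, under the background median of its array on all 6 arrays, so no fold change is given. Between 7.62% and 13.5% of the negative control probe sets read below it. Other endothelial genes were measured: 12 of 13 endothelial markers lay above background on average. Of these, Tek and Vwf exceeded the background median of the array on 5 arrays and Erg on 3. The mean of the list ran from 6.59 to 7.10 in Myd88−/− glands and from 6.76 to 7.16 in Myd88+/+ glands. Of the 13, 9 were lower and 4 higher in Myd88−/− glands. Among the 12 above background 9 were lower, beside 57.8% of all probe sets above background. Pecam1 and Cdh5, adhesion molecules of endothelium, were among the lower ones, at −0.32 and −0.27 (limma adjusted p = 0.626 and 0.654), and Esam, at 0.24, was among the higher.

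F11r, the junctional adhesion molecule JAM-A, was the gene of the 10 whose groups did not overlap. This immunoglobulin-like protein sits at the junction of epithelium and endothelium and is also found on leukocytes and platelets. It read 12.17, 12.53 and 12.18 in Myd88−/− glands and 13.24, 12.80 and 12.60 in Myd88+/+ glands. The gap between the highest Myd88−/− and the lowest Myd88+/+ gland was 0.07, and Myd88+/+ replicate 1 stood above the rest. The means were 12.29 ± 0.20 and 12.88 ± 0.33 (SD, n = 3 each), a difference of −0.59 (SE 0.21), or 1.50-fold lower. It did not pass (limma adjusted p = 0.44), and its exact two-sided permutation test gave 0.1, which no 3 against 3 design can go below. Leaving out each mouse gave −0.72 to −0.41, the smallest difference being the one without Myd88+/+ replicate 1.

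Ocln, occludin, a strand protein of the MARVEL family, had a higher mean in Myd88−/− glands, with 10.13, 10.28 and 9.74, against 9.63, 9.75 and 9.79 in Myd88+/+ glands. Replicates 1 and 2 of the Myd88−/− group lay above all Myd88+/+ glands and replicate 3 lay within them. The difference was 0.33 (95% interval −0.10 to 0.75, limma adjusted p = 0.593), with 0.21 without Myd88−/− replicate 2 and 0.48 without Myd88−/− replicate 3. Tjp1, which encodes the scaffold ZO-1 that binds claudins and occludin to actin, read 10.50, 10.18 and 10.12 in Myd88−/− glands and 10.73, 10.52 and 10.48 in Myd88+/+ glands. The groups overlapped narrowly through Myd88−/− replicate 1, and the difference was −0.31 (95% interval −0.71 to 0.09, limma adjusted p = 0.595).

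The spread within a group had a pattern of its own. Myd88+/+ replicate 1 was the highest of its group in 9 of the 10 genes, and Myd88−/− replicate 2 the highest of its group in 7, while Myd88−/− replicate 3 and Myd88+/+ replicate 3 were each the lowest in 7. The arrays also differed in how far their log2 values spread. Measured as the 90th minus the 10th percentile, this spread was 6.83 in Myd88−/− replicate 3, the narrowest array, against 6.95 for replicate 1 and 7.13 for replicate 2 of that genotype. Among Myd88+/+ glands it was 7.30 for replicate 1, the widest array, 7.20 for replicate 3 and 7.10 for replicate 2. After quantile normalization, which gives every array the same spread, the difference was −0.67 for Cldn4 and −0.48 for F11r, and the median of the 10 genes was −0.03, against −0.15 as deposited.

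**Figure D3:**
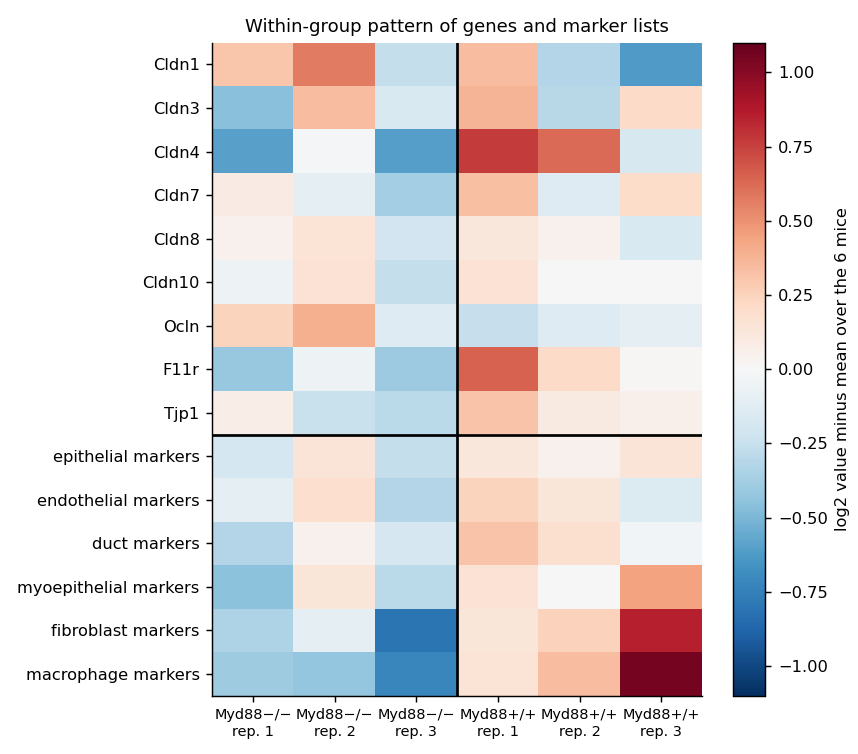
Log2 value minus the mean over the 6 mice (colour, red high and blue low) for 9 genes, Cldn5 left out, and below the line the mean of marker lists, with Myd88−/− replicates 1 to 3 on the left and Myd88+/+ replicates 1 to 3 on the right. Cldn4 and F11r are darkest red in Myd88+/+ replicate 1, whereas macrophage and fibroblast markers are darkest red in Myd88+/+ replicate 3.

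Epithelial markers were read in the same glands. The mean of 7 epithelial markers was 11.26, 11.59 and 11.19 in Myd88−/− glands and 11.58, 11.50 and 11.60 in Myd88+/+ glands, a difference of −0.21, with 5 of 7 lower. Myd88−/− replicates 1 and 3 were therefore below the other 4 mice. The 7 markers did not move together: Elf3 differed by −0.56 and Cdh1 by −0.31, whereas Krt8 and Krt18 differed by 0.04 and 0.002. Krt19 was the 1 of the 7 below background on average. The lower mean in Myd88−/− glands raises every difference taken relative to it by the same amount. Taken relative to this mean in each mouse, F11r was 0.91, 0.94 and 0.99 in Myd88−/− glands and 1.66, 1.30 and 1.01 in Myd88+/+ glands, a difference of −0.37, whose groups were separated by a narrow margin (two-sided exact permutation p = 0.1). It was −0.20 without Myd88+/+ replicate 1. Relative Cldn4 was −2.33, −2.09 and −2.27 in Myd88−/− glands and −1.28, −1.35 and −2.24 in Myd88+/+ glands, a difference of −0.60 (exact permutation p = 0.2), with Myd88+/+ replicate 3 inside the Myd88−/− range, and −0.91 without that mouse. Relative Ocln was −1.12, −1.31 and −1.45 in Myd88−/− glands, against −1.95, −1.75 and −1.81 in Myd88+/+ glands. All 3 relative Ocln values of Myd88−/− glands were thus the higher ones, by 0.54 on average (exact permutation p = 0.1). Before the markers were subtracted, the Ocln groups overlapped, with a difference of 0.33, and Cldn8 differed by −0.01. Relative Cldn1 was 0.62 higher in Myd88−/− glands (exact permutation p = 0.2), Cldn8 was 0.21 higher (p = 0.1) and Cldn10 was 0.10 higher (p = 0.3), all by the exact permutation test. Without Myd88+/+ replicate 3 these were 0.39 for Cldn1, 0.10 for Cldn8 and 0.06 for Cldn10. Relative Cldn3, Cldn7 and Tjp1 differed by 0.02, −0.05 and −0.10.

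**Figure D4:**
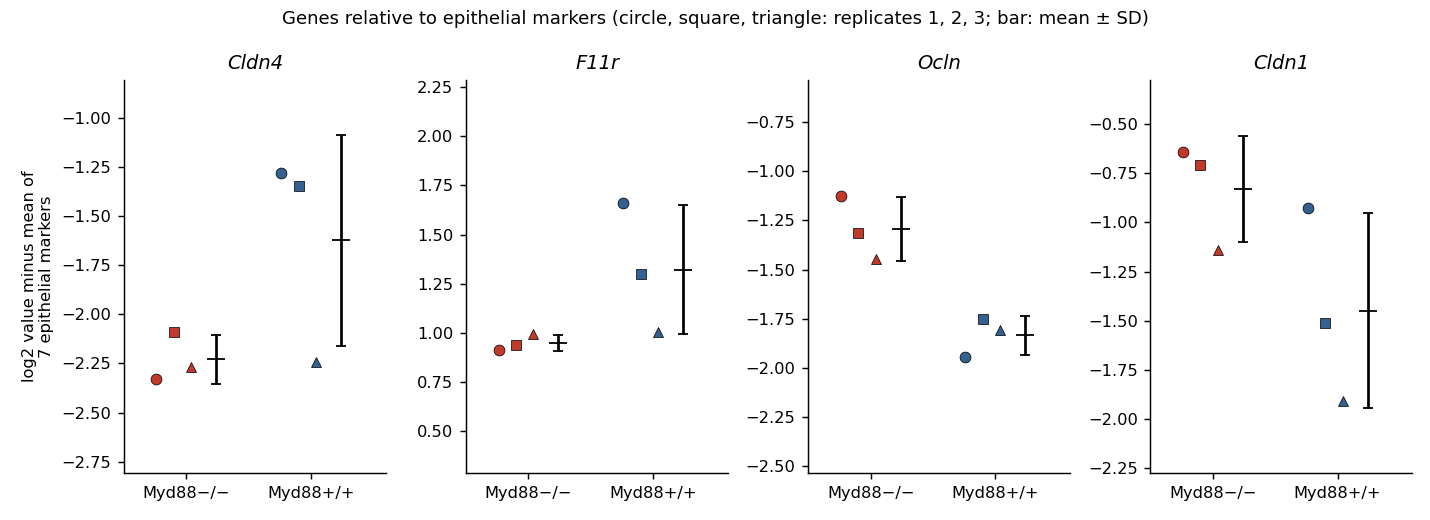
Log2 value of Cldn4, F11r, Ocln and Cldn1 minus the mean of 7 epithelial markers of the same mouse (y axis, each panel spanning 2 log2 units), with Myd88−/− on the left and Myd88+/+ on the right; symbols are replicates 1, 2 and 3 and the bar is mean ± SD (n = 3). Ocln separates with Myd88−/− above, and F11r with Myd88−/− below by a narrow margin.

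Markers of other cell types were set beside the genes in the same way. Of 9 macrophage markers, 9 were lower in Myd88−/− glands, where the mean of the list ran from 7.26 to 7.58, against 8.13 to 9.02 in Myd88+/+ glands. All 7 T cell markers had lower means too, though 4 of the 7 lay below background on average, at 5.53 to 5.95 in Myd88−/− glands against 5.84, 6.35 and 7.08 in Myd88+/+ glands. The high value is Myd88+/+ replicate 3, in which Cd3e, a subunit of the T cell receptor complex, read 8.26, against 5.13 and 5.85 in the other Myd88+/+ glands. The summed macrophage level was 10.68 to 11.12 in Myd88−/− glands against 11.57 to 12.52 in Myd88+/+ glands, as log2 of the sum. Of 6 fibroblast markers, 6 were lower, at 10.40 to 11.11 in Myd88−/− glands against 11.34 to 12.06 in Myd88+/+ glands. Of 10 markers of striated and excretory ducts, 9 were lower, at 9.07 to 9.44 in Myd88−/− glands against 9.36 to 9.71 in Myd88+/+ glands. Of these 10, 2 lay below background on average, and 7 of the other 8 were lower, beside 57.8% of all probe sets above background. Krt7 and Krt19 belong to both this list and the epithelial markers. The mean of the granular duct markers showed no clear direction. Of the 8, 1 was lower, and 2 at the ceiling on every array could show no difference. The rest had higher means in Myd88−/− glands, by 0.004 for Klk1b22 to 0.46 for Klk1b16. The list ran from 17.93 to 18.39 in Myd88−/− glands, a range that holds the 18.05 to 18.19 of Myd88+/+ glands. Of 9 myoepithelial and basal markers, 8 were lower, at 8.35 to 8.93 in Myd88−/− glands against 8.80 to 9.25 in Myd88+/+ glands. Of 10 acinar markers, 6 were lower, and 2 at the ceiling on every array could show no difference. Of 5 B cell and 5 plasma cell markers, 3 of each were lower, with 3 and 2 below background on average. Of 7 skeletal muscle markers, 1 was lower and 6 higher, though 5 of the 7 lay below background on average. The macrophage and fibroblast lists were highest in Myd88+/+ replicate 3, the mouse with the lowest Cldn4 and F11r of its group. Ascl3, a transcription factor of a duct progenitor and ionocyte lineage, was picked out after its values were seen, as it ordered the mice much like Cldn4, with 8.10, 8.41 and 8.32 in Myd88−/− glands and 9.57, 9.47 and 8.67 in Myd88+/+ glands. Other genes of its list varied: Foxi1 differed by −0.60, Atp6v1b1 by −0.09 and Cftr, the 1 higher gene, by 0.49. A gene chosen for its likeness to Cldn4 gives no support for a link between them. The part of these cell types in the tight junction values was not tested.

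The genes nearest in pattern were sought for the 4 genes that varied most, by the root mean square (RMS) difference between centred log2 values over the 6 arrays, among 10851 other named genes above background. For Cldn4, whose own SD over the 6 arrays was 0.59, they were Slc4a11, a membrane transporter, at an RMS difference of 0.07, Scamp3, a protein of secretory carrier membranes, at 0.10, and Gstt3, a glutathione transferase, at 0.11. Slc4a11 read 10.78, 11.25 and 10.81 in Myd88−/− glands and 11.98, 11.88 and 11.15 in Myd88+/+ glands, with Myd88+/+ replicate 3 low as for Cldn4. For F11r (SD 0.40) they were the histone gene H2bc11 at 0.04, Tmem129, an enzyme of protein degradation in the endoplasmic reticulum, at 0.05, and Stk11, the kinase LKB1 of cell polarity and energy sensing, at 0.06. Stk11 read 13.69, 14.16 and 13.76 in Myd88−/− glands and 14.78, 14.40 and 14.04 in Myd88+/+ glands. For Cldn1 (SD 0.47) they were Vnn1, a pantetheinase, at 0.08, Vat1 at 0.09 and Rnf152, a lysosomal ubiquitin ligase, at 0.10. For Cldn3 (SD 0.36) they were the replication helicase subunit Mcm2 at 0.06, Nostrin at 0.07 and Ctr9, a subunit of an elongation factor complex, at 0.07. Likeness over 6 arrays is a description only.

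Beyond the 10 genes, 86 genes of 5 related lists were measured. Of these 47 were lower and 39 higher in Myd88−/− glands, with a median log2 difference of −0.03, and 0 passed limma's adjusted test. At an unadjusted p under 0.05, 6 were lower (6.98%, against 5.55% of all probe sets) and 1 was higher (1.16%, against 4.5%). The groups did not overlap in 8 that were lower (9.30%, against 7.25%) and 3 that were higher (3.49%, against 7.84%). Among the 8, Cxadr and Mpdz were separated by gaps of only 0.002 and 0.008. Among the 3, both group means of Pkp3 and of Twist1 lay below background. Pooled over the 5 lists, the shares that were lower are near the background and those that were higher are below it. The lists were uneven. The 20 epithelial regulators held 3 of the 6 lower genes at an unadjusted limma p under 0.05 and 5 of the 8 lower genes without overlap.

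**Figure D5:**
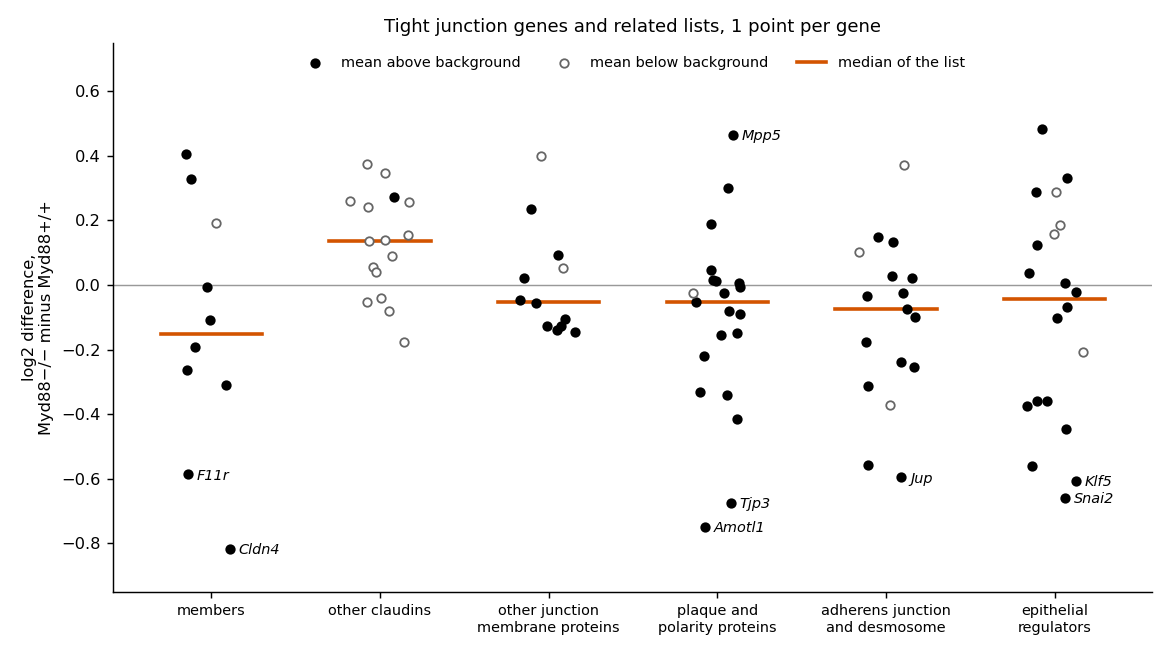
Log2 difference, Myd88−/− minus Myd88+/+ (y axis), of the 10 genes and of 86 genes of 5 related lists, 1 point per gene, open where the mean over all mice lies below background; orange lines are medians. The medians lie between −0.15 for the 10 genes and 0.14 for the other claudins, whose points are almost all open.

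Of 16 other claudins, 15 lay below background on average, among them Cldn14, Cldn11 and Cldn18, which had the smallest p of the list. Cldn12, with 9.50, 9.02 and 8.85 in Myd88−/− glands and 9.23, 8.76 and 8.57 in Myd88+/+ glands, was the single one above it, named for that after its values were seen. Its groups overlapped (limma adjusted p = 0.728). Of 12 other membrane proteins of the junction, 7 were lower and 5 higher, and 0 reached an unadjusted p under 0.05. Cxadr, an adhesion protein and virus receptor, had −0.15, and Esam, an adhesion molecule of endothelium, had 0.24, or 0.14 without Myd88+/+ replicate 3 and 0.39 without Myd88+/+ replicate 2. Ildr2, a relative of the tricellular protein angulin, lay below background in both groups. Marveld2, or tricellulin, the gene next to Ocln on chromosome 13, read 7.78, 8.51 and 7.78 in Myd88−/− glands and 8.26, 8.19 and 7.998 in Myd88+/+ glands. The difference, −0.13, had the opposite sign to that of Ocln (limma adjusted p = 0.883), and Marveld2 is named here for its position.

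Of 21 plaque and polarity proteins, 14 were lower and 7 higher. Amotl1, an angiomotin relative that binds the junction and the YAP protein, read 7.62, 7.42 and 7.81 in Myd88−/− glands and 8.26, 8.33 and 8.50 in Myd88+/+ glands. All 3 Myd88−/− glands were below all 3 Myd88+/+ glands, with a gap of 0.45, and the difference was −0.75 (SE 0.18, limma adjusted p = 0.339). Unlike the 10 genes, Amotl1 lies on chromosome 9, which carries Myd88, and the part of that position in its difference was not tested. Tjp3, the scaffold ZO-3, read 8.39, 7.84 and 7.48 in Myd88−/− glands and 8.38, 8.65 and 8.69 in Myd88+/+ glands. Myd88−/− replicate 1 lay within the Myd88+/+ range, and the difference was −0.67 (limma adjusted p = 0.436). Mpp5, the polarity scaffold PALS1, ran the other way, at 11.06, 10.61 and 10.42 in Myd88−/− glands, against 10.23, 10.16 and 10.31 in Myd88+/+ glands, a difference of 0.47 (limma adjusted p = 0.483) without overlap, and 0.29 without Myd88−/− replicate 1.

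Of 17 genes of adherens junctions and desmosomes, 11 were lower and 6 higher. Jup, plakoglobin, which links cadherins to the cytoskeleton, read 11.14, 11.73 and 10.71 in Myd88−/− glands and 12.02, 11.69 and 11.66 in Myd88+/+ glands, a difference of −0.60 (limma adjusted p = 0.486) with overlapping groups. It was −0.86 without Myd88−/− replicate 2 and −0.35 without Myd88−/− replicate 3. Pkp3, a desmosomal plaque protein, and Nectin1, an adhesion protein of adherens junctions, had the next smallest p of the list, but both group means of each lay below background, so no fold change is given. Of 20 epithelial regulators, 11 were lower and 9 higher. The list mixes factors that promote epithelial genes, repressors such as Snai2 and proteases such as Prss8. Its counts therefore give no direction for epithelial identity. The groups did not overlap in 5 that were lower (Klf5, Snai2, Elf3, Esrp1 and Prss8) and 1 that was higher, against 7.25% and 7.84% of all probe sets. The higher one was Twist1, which read below the background median of every array. Klf5, an epithelial transcription factor, read 8.31, 8.27 and 8.14 in Myd88−/− glands and 9.02, 8.86 and 8.65 in Myd88+/+ glands, a difference of −0.61 (limma adjusted p = 0.382) without overlap. Snai2, or Slug, is one of the Snail-type repressors that recognise the letters CAGGTG, and its binding was not measured here. It read 7.65, 7.61 and 7.01 in Myd88−/− glands and 8.01, 8.12 and 8.11 in Myd88+/+ glands, a difference of −0.66 (limma adjusted p = 0.395). Elf3, an epithelial ETS factor, had −0.56 (limma adjusted p = 0.454), or −0.34 without Myd88−/− replicate 3, and also belongs to the 7 epithelial markers.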

How the data were processed

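Submandibular gland RNA of 6 mice was measured on Clariom S arrays, 1 per mouse, with RNA isolated on columns and labelled as cDNA (per the labels' protocols). The deposited table holds log2 expression values that the authors made by the robust multi-array average (RMA), per the labels. The Transcriptome Analysis Console is named in the submitters' processing notes. The values themselves gave the log2 scale. No source used here states the software version, the RMA variant or the build of the array annotation. RMA shrinks differences near background, and the scale ends at 19.93. Scanner files were not used here, and precision is limited by having 6 arrays.

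Of 28846 probe sets, 6640 controls were left out. Of the 22206 that remained, the platform annotation paired 19572 with 1 gene symbol and 0 with more than 1, which left 2634 unnamed here. All 19572 Entrez identifiers matched RefSeq (GRCm38.p6), and 0 symbols needed updating. A gene was read by its probe set with the highest mean. Groups came from the sample titles. They were compared as Myd88−/− minus Myd88+/+ with limma 3.58.1 in R 4.3.3 (lmFit, eBayes, no covariates), with Benjamini-Hochberg adjustment over all 22206 probe sets and a threshold of 0.05; the procedure was tested on simulated data. Single values had a two-sided exact permutation test, whose smallest p is 0.1. Values relative to epithelial markers subtract the mean log2 value of 7 genes (for Cldn5, of 13 endothelial genes) in each mouse.

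The genes and lists were chosen with earlier results of these data known. Named genes were the 10 members, Myd88, the 3 genes of smallest unadjusted p in each of 5 related lists, and the 3 nearest in pattern to each of the 4 most variable members, leaving out predicted genes, clones, olfactory and vomeronasal receptors, small RNAs and antigen receptor segments. Of 206 distinct list names, 187 had a probe set named here. Promoters are from RefSeq, and motifs were searched on both strands. Alternatives were 3 further normalizations, a filter that drops the dimmest 30% or 50%, 3 variance models, a block for the replicate number, and fits without each mouse.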

Additional observations from a re-analysis of the deposited data

How the results depend on the processing

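Over 15 alternatives the differences of Cldn4 and F11r kept their sign, from −1.11 to −0.64 and from −0.72 to −0.41, with adjusted p from limma of 0.236 to 0.716 and 0.256 to 0.717. Their unadjusted p was under 0.05 in 10 and 11 of the 15. The other members but Cldn8 also kept their sign. Cldn8 turned to 0.11 after quantile normalization and 0.065 after cyclic loess, and ran from −0.091 to 0.096 without 1 mouse. The number of members with a lower mean was 6 or 7, and their median was −0.24 to −0.03. Relative to markers, Cldn3 ran from −0.15 to 0.16, Cldn7 from −0.21 to 0.060 and Tjp1 from −0.26 to 0.070 without 1 mouse, and the others kept their sign. Probe sets called by limma numbered 4 with an intensity trend and robust variances, 2 with median centring and 0 to 5 without 1 mouse (1 without Myd88−/− replicate 2, 5 without Myd88+/+ replicate 1, 1 without Myd88+/+ replicate 3), against 0. Members were not among them under any of these. Related genes higher at an unadjusted p under 0.05 numbered 2 with array weights, with cyclic loess and with the intensity trend, 3 with quantile normalization, 0 with median centring, without moderation and with the replicate block, and 0 to 4 without 1 mouse, against 1. Those lower numbered 3 (without Myd88−/− replicate 3) to 12 (without Myd88−/− replicate 2), against 6. The causes were not tested.

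With the replicate number as a block, F11r had an adjusted p from limma of 0.566 and Cldn4 of 0.546, and 0 probe sets were called. Same-numbered mice correlated at −0.11, −0.15 and −0.02 in their deviations from the group means, and differently numbered mice at −0.12 to 0.20. Deviations of 3 mice sum to 0 in each group, so these correlations cannot show whether same-numbered mice were handled together. Averaging all probe sets of a gene gave nothing to compare, as each member has 1. The median of all probe sets was 0.016 as deposited, 0.015 after quantile normalization, 0.00043 after cyclic loess and −0.0059 after median centring.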
